A study of Mus musculus with 7 samples.

Results

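The genes described here are 7 collagen genes outside the fibrillar group: the collagen VI chains Col6a1, Col6a2 and Col6a3, the network-forming Col8a1, and the fibril-associated Col12a1, Col14a1 and Col16a1. The rule took them by symbol and used no measured value, but they were chosen with earlier results of these data known. All 7 had a row among the 48795 genes counted. Their transcripts were counted by RNA sequencing of whole tibialis anterior (TA), a shin muscle made mostly of fast fibres, in 4 miR-486 KO libraries (KO 1 to KO 4) and 3 WT libraries (WT 1 to WT 3) from male mice aged 6 months. The KO (miR-486-/-) carries a germline CRISPR deletion of the hairpin of this microRNA, which lies in an intron of Ank1 and is abundant in muscle, so the deletion is not limited to the muscle fibres. The labels give FVB N/J as the strain of the KO mice and C57BL/6 as that of the WT mice, the WT data columns carry FVB in their names, and the methods describe one shared background. Strain and genotype cannot be told apart here. The methods describe separate mice in each cohort, while the labels do not tie a library to an animal.

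Collagen VI is built from the α1, α2 and α3 chains, which join into a heterotrimer and then into beaded microfilaments around the muscle fibre, next to its basement membrane. Mutations in any of these chains cause the collagen VI myopathies (Ullrich and Bethlem) in human patients, and in muscle the protein is made mostly by interstitial fibroblasts and not by the fibres. Collagens XII, XIV and XVI belong to the FACITs, fibril-associated collagens with interrupted triple helices, of which XII and XIV sit on the surface of collagen I fibrils, while collagen VIII is a short-chain collagen that forms networks in vessel walls and other tissues.

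The triple-helical part of every collagen chain repeats glycine with a fixed spacing (Gly-X-Y), and the coding sequences show how differently the members use it. Codons that start with GG, which all encode glycine, were followed at a spacing of 3 codons through the longest complete coding sequence of each gene in GENCODE M21 (GRCm38). Col6a1 and Col6a2, which lie 85.2 kb apart on the same strand of chromosome 10, had the same longest unbroken run, 87 triplets, in coding sequences of 1025 and 1034 codons. Col6a3, on chromosome 1, had a longest run of 45 triplets in 3284 codons. Counting runs of at least 6 triplets, the collagen VI genes had nearly the same total, with 110 in Col6a1, 110 in Col6a2 and 111 in Col6a3, which is 10.1% of the Col6a3 codons. Such runs took up 62.1% of the codons in Col8a1 and 60.4% in Col16a1, against 8.22% in Col12a1 and 14.0% in Col14a1, in which the rest of the chain is non-collagenous. The first 60 bases of the longest run are shown for the chains that form the heterotrimer, with the glycine codons in capitals, at bases 766 to 825, 811 to 870 and 6493 to 6552 of the coding sequences.
Col6a1: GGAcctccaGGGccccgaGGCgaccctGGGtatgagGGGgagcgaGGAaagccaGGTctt
Col6a2: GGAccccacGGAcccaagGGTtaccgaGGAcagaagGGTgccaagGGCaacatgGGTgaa
Col6a3: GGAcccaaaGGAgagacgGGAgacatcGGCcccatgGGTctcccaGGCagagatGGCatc

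The libraries held 23839577 to 28168275 gene counts. WT 3 stood apart, with a median correlation to the other libraries of 0.945 against 0.978 to 0.985 for the rest, and with 22.5% of its gene counts from mitochondrially encoded genes, against 15.8% to 17.9% in KO and 13.0% to 13.3% in WT 1 and WT 2. The main results that rest on it are also given without it or by library. Muscle fibre genes were abundant, as the tissue label says: the 8 on the list summed to 126100 to 149300 CPM (TMM-scaled read counts relative to library size) in KO and 133300 to 159600 CPM in WT.

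All 7 collagens had lower mean levels in KO muscle, at 44.1% to 65.8% of the WT mean. Col16a1 was the only member that passed the test over all genes, so 1 of 7 fell and 0 rose (edgeR quasi-likelihood test, Benjamini-Hochberg adjusted p threshold 0.05). Of all 14002 genes tested, 1.85% fell by the same test and 0.964% rose. At an unadjusted p under 0.05, 6 of 7 members were lower, against 12.1% of all genes, and in 5 of 7 members every KO library lay below every WT library, against 11.4% of all genes. The adjusted edgeR p of Col6a1, Col6a2, Col6a3 and Col8a1 lay just over the threshold, between 0.0558 and 0.0650. The calls turned on the tool and on single libraries. DESeq2 called 5 of 7 as lower (4.75% of all genes), edgeR without WT 3 called all 7 (6.55% of all genes), and limma-voom with library quality weights, which gave WT 3 a weight of 0.0770, also called all 7 (8.77% of all genes). Leaving out any KO library or WT 1 left 0 of 7 past the edgeR threshold (5 or 6 at an unadjusted p under 0.05), and leaving out WT 2 left only Col6a3. The share of all genes at that unadjusted p was counted only with all libraries. Few genes of any kind fell in those fits, 0.194% of all genes without KO 1 or KO 2, 0.0721% without KO 3, 0.072% without KO 4, 1.39% without WT 1 and 0.723% without WT 2. The median log2 fold change of the 7 members was -0.79, and that of all genes tested was -0.02. In bulk muscle, fewer cells that make a transcript and less RNA per cell cannot be told apart.

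**Figure D1:**
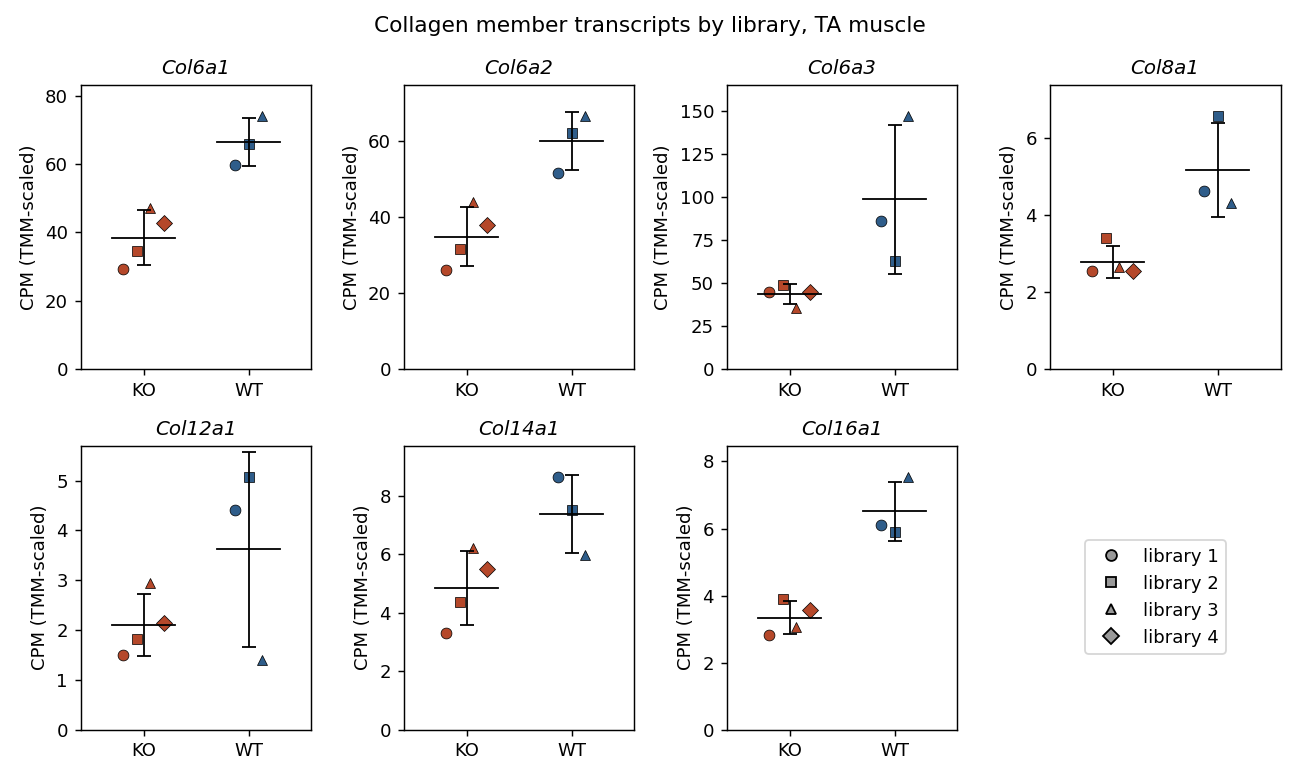
TMM-scaled CPM of the 7 collagen transcripts in each library, with the 4 KO libraries left and the 3 WT libraries right; the marker shape gives the library number, the line is the mean and the bar the SD. Every KO library lies below every WT library for Col6a1, Col6a2, Col6a3, Col8a1 and Col16a1, while WT 3 falls among or below the KO libraries for Col12a1 and Col14a1.

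Markers of other cell types moved unevenly beside these genes, and their part in the result was not tested. The 12 markers of fibro-adipogenic progenitors, the interstitial cells that make much of the muscle matrix, summed to 550.2 to 758 CPM in KO and 665 to 740.4 CPM in WT. Only Hic1 and Clec3b of this list fell, and these calls were lost without any 1 library other than WT 3. The list's median log2 fold change was -0.17. The 8 tendon cell markers summed to 65.1 to 72.4 CPM in KO and 154 to 218 CPM in WT, without overlap. Much of this sum was 1 gene, Thbs4, at 43.95 to 46.9 CPM in KO and 83.05, 81.7 and 183.7 CPM in WT 1 to WT 3. The upper WT value thus rests on Thbs4 in WT 3, where Comp and Fmod were at their lowest WT level (2.14 and 21.6 CPM). By edgeR with all libraries 2 of these 8 fell, Comp and Thbs4, while 7 were lower at an unadjusted p under 0.05, and 6 fell by DESeq2 and 6 by edgeR without WT 3. All 8 had a log2 fold change below 0, with a median of -1.30, against -0.79 for the 7 collagens. The 6 endothelial markers, of which Kdr fell (not without any 1 library other than WT 3), summed to 224 to 262 CPM in KO and 304 to 350.3 CPM in WT. The lists of mural, macrophage, adipocyte, Schwann cell and muscle fibre markers had 0 genes past the edgeR threshold in either direction. At an unadjusted p under 0.05 they had 3, 1, 0, 0 and 1, all lower, and DESeq2 called 2 mural markers and 0 of the other 4 lists. The 1 macrophage marker was Cd68, at 22.8 CPM in WT 3 against 2.46 and 2.82 CPM in WT 1 and WT 2. Its log2 fold change was -2.445 with all libraries and -0.625 without WT 3. No marker was at 0 in every library.

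Col6a1 (ENSMUSG00000001119.7, chromosome 10, 76708792 to 76726168, minus strand) encodes the α1 chain. Its level was 29.2, 34.6, 47.3 and 42.8 CPM in KO 1 to KO 4, against 59.8, 65.9 and 74.0 CPM in WT 1 to WT 3. The groups did not overlap, KO 3 was the highest of the KO libraries, and WT 3 was the highest of all. The mean was 38.5 ± 8.13 CPM in KO (SD, n = 4) and 66.5 ± 7.14 CPM in WT (SD, n = 3), a log2 fold change of -0.79 with a 95% interval of -1.19 to -0.39 with an adjusted edgeR p of 0.0558. Leaving out WT 3 gave -0.70, with an adjusted edgeR p of 0.0184.

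Col6a2 (ENSMUSG00000020241.13, chromosome 10, 76595762 to 76623630, minus strand) encodes the α2 chain. It stood at 26.0, 31.4, 43.8 and 37.9 CPM in KO 1 to KO 4, against 51.5, 62.1 and 66.3 CPM in WT 1 to WT 3. The libraries took the same order as for Col6a1, from KO 1 as the lowest to WT 3 as the highest, again without overlap. The log2 fold change was -0.79 with a 95% interval of -1.21 to -0.36 and an edgeR adjusted p of 0.0650, and without WT 3 it was -0.70 with an adjusted p of 0.0248.

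Col6a3 (ENSMUSG00000048126.16, chromosome 1, 90765923 to 90843971, minus strand) encodes α3, the largest chain, whose C-terminal end is released as the fragment endotrophin. Its level was 44.6, 49.0, 35.5 and 44.6 CPM in KO 1 to KO 4, against 86.0, 63.0 and 146.7 CPM in WT 1 to WT 3. The groups did not overlap, but the order within them differed from that of the other chains, with KO 3 now the lowest library and WT 2 the lowest of WT. Its WT spread was the widest of the collagen VI chains, at 43.9% of the mean, against 13.1% in KO. WT 3 was at 1.97 times the mean of WT 1 and WT 2. The log2 fold change was -1.18 (95% interval -1.78 to -0.58, edgeR adjusted p 0.0558). Without WT 3 it was -0.78 (95% interval -1.08 to -0.47, edgeR adjusted p 0.00596), and KO was then at 58.3% of WT in place of 44.1%.

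The ratio between chains within a library does not depend on scaling to library size. The read counts of Col6a1 over Col6a2 were 1.12, 1.10, 1.08 and 1.13 in KO 1 to KO 4, against 1.16, 1.06 and 1.11 in WT 1 to WT 3. These ratios kept within a factor of 1.09 of each other over all 7 libraries, although the level of either gene differed by more. The log2 difference between KO and WT was -0.004, with an exact two-sided permutation p of 0.943 over the 35 arrangements of the libraries. The SD of this log2 ratio was 0.028 in KO and 0.064 in WT.

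Col6a3 kept no such ratio to the other chains. Its counts over those of Col6a1 were 1.53, 1.41, 0.750 and 1.04 in KO 1 to KO 4, against 1.44, 0.956 and 1.98 in WT 1 to WT 3. KO 3 was the lowest and WT 3 the highest, 2.64 times as high, and the groups overlapped. The log2 difference was -0.29 (-0.04 without WT 3), with an exact permutation p of 0.457, and 0.729 after adjustment over the 3 chain ratios. Over Col6a2 the log2 difference was -0.30, with an exact permutation p of 0.486 and an adjusted p of 0.729. The log2 SD within a group was 0.468 in KO and 0.527 in WT for Col6a3 over Col6a1, so a genotype difference of the size of these estimates could not be told from the spread. Described over the 7 libraries, log2 CPM of Col6a1 correlated with Col6a2 at r = 0.996 and with Col6a3 at r = 0.737. The points share their libraries and the difference between genotypes, so these values carry no test.

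**Figure D2:**
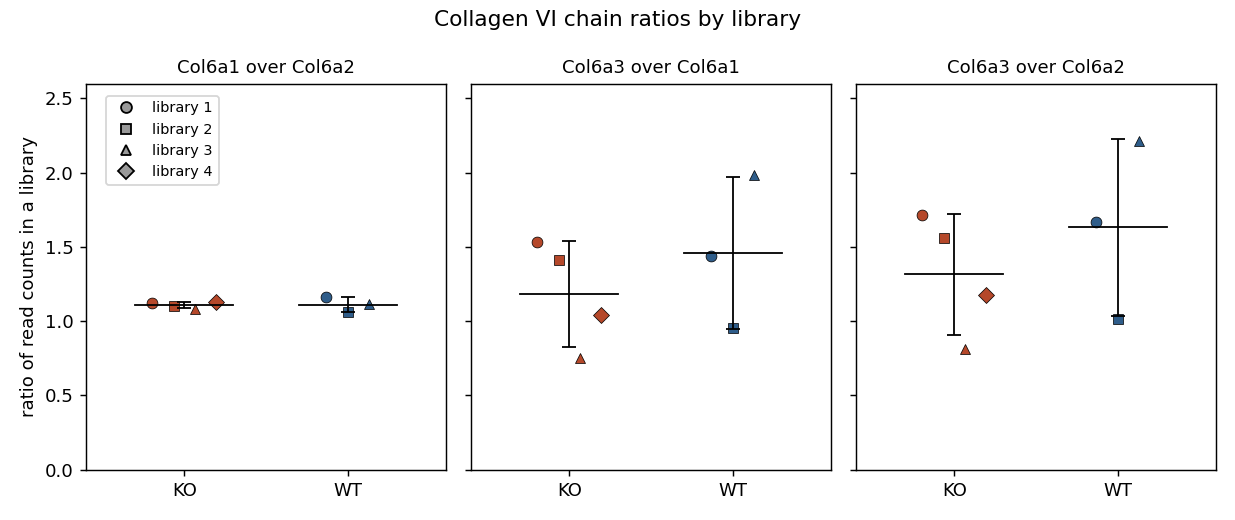
Ratio of read counts between collagen VI chains in each library, KO left and WT right, with the mean as a line and the SD as a bar; the marker shape gives the library number. Col6a1 over Col6a2 stays between 1.06 and 1.16 in all 7 libraries, while Col6a3 over Col6a1 runs between 0.750 and 1.98.

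The RefSeq promoter windows of the collagen VI genes (GRCm38.p6, 250 bases before to 50 after the start) are shown as a description. Whether their letters bear on the levels of the chains was not tested. Promoter windows were matched for 5 of the 7 members. The capitals mark the motifs searched on both strands: the GC box GGGCGG, the GA box GGGAGGG, the CCAAT box CCAAT and the TATA box TATAAA. The windows are chr10:76725995-76726294 for Col6a1, chr10:76623355-76623654 for Col6a2 and chr1:90843922-90844221 for Col6a3, all on the minus strand and written 5′ to 3′ of the gene.
Col6a1: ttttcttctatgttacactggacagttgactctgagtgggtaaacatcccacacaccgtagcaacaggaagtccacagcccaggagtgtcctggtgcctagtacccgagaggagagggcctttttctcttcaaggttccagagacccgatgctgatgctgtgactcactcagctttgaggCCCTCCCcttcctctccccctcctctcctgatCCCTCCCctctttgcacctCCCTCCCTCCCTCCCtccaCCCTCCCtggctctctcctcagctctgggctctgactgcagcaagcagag
Col6a2: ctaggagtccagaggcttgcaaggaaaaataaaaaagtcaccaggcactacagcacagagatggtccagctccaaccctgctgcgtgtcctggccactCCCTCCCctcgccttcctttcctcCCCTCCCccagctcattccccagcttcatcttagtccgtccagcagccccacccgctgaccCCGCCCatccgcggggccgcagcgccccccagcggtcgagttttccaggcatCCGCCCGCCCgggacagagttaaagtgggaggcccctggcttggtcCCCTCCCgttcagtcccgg
Col6a3: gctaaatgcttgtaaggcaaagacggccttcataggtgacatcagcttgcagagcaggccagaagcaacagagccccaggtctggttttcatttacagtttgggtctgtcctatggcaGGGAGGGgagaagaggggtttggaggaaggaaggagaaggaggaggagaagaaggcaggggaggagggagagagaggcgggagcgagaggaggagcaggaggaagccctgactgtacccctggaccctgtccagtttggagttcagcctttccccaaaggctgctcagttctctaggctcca
The GA box, counted with overlaps between neighbouring matches, occurred 6 times in the Col6a1 window, 3 times in the Col6a2 window and 1 time in the Col6a3 window, and 22.0% of all 32851 RefSeq windows hold at least 1. The GC box occurred 3 times in the Col6a2 window, where 2 of the matches overlap, and 0 times in those of Col6a1 and Col6a3, against 35.7% of all windows with at least 1. Neither CCAAT (37.4% of all windows) nor TATAAA (13.6%) was in these 3 windows. A second RefSeq window of Col6a2, at a start further upstream, held 1 GC box and 1 GA box. These matches describe letters and not bound sites.

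Col16a1 (ENSMUSG00000040690.15, chromosome 4, 130047840 to 130099283, plus strand) encodes the only chain of collagen XVI, a FACIT found near basement membranes and small fibrils. Its level was 2.82, 3.89, 3.06 and 3.58 CPM in KO 1 to KO 4, against 6.11, 5.89 and 7.53 CPM in WT 1 to WT 3. Every KO library was below every WT library, with WT 3 the highest of all. The mean was 3.34 ± 0.487 CPM in KO (SD, n = 4) and 6.51 ± 0.889 CPM in WT (SD, n = 3). Col16a1 fell by 0.96 on the log2 scale (95% interval -1.34 to -0.58, edgeR adjusted p 0.0270), to 51.3% of WT. The direction held in all alternatives, with log2 fold changes from -1.04 to -0.82, but the call was lost without any 1 KO library (adjusted edgeR p 0.0715 to 0.102), without WT 1 (0.0505) and without WT 2 (0.0570). Without WT 3 the adjusted edgeR p was 0.00725.

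Col14a1 (ENSMUSG00000022371.15, chromosome 15, 55307750 to 55520803, plus strand) encodes collagen XIV, which binds collagen I fibrils and decorin and takes part in the control of fibril diameter. Its level was 3.31, 4.37, 6.20 and 5.51 CPM in KO 1 to KO 4, against 8.63, 7.51 and 5.97 CPM in WT 1 to WT 3. KO 3 was above WT 3, so the groups overlapped, and WT 3 was the lowest WT library. The log2 fold change was -0.61 with a 95% interval of -1.13 to -0.08, and did not pass the test over all genes (edgeR adjusted p 0.194). Leaving out WT 3 gave -0.73, with an adjusted edgeR p of 0.0479.

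Col12a1 (ENSMUSG00000032332.17, chromosome 9, 79598991 to 79718831, minus strand) encodes collagen XII, a FACIT of tendon, fascia and muscle, mutations of which cause a myopathy with lax joints in human patients. It was the member with the fewest reads, 40 to 79 per KO library and 34 to 135 per WT library. Its level was 1.50, 1.83, 2.95 and 2.14 CPM in KO 1 to KO 4, against 4.40, 5.07 and 1.40 CPM in WT 1 to WT 3. WT 3 was the lowest of all 7 libraries, while WT 1 and WT 2 were the highest. The log2 fold change was -0.79 with a 95% interval of -1.73 to 0.16 and an adjusted edgeR p of 0.325. Leaving out WT 3 gave -1.16 and an adjusted edgeR p of 0.0102. WT 3 was at 0.296 times the mean of WT 1 and WT 2 for Col12a1, against 1.97 times for Col6a3, so the same library was at opposite ends of the WT range for these 2 genes.

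Col8a1 (ENSMUSG00000068196.4, chromosome 16, 57624258 to 57754737, minus strand) encodes the α1 chain of collagen VIII, made in vessel walls and by other mesenchymal cells. Its level was 2.56, 3.42, 2.65 and 2.55 CPM in KO 1 to KO 4, against 4.64, 6.57 and 4.32 CPM in WT 1 to WT 3. KO 2 was the highest of the KO libraries and WT 2 the highest of WT, and the groups did not overlap. The mean was 2.79 ± 0.418 CPM in KO (SD, n = 4) and 5.18 ± 1.22 CPM in WT (SD, n = 3). The log2 fold change was -0.89 with a 95% interval of -1.34 to -0.43 and an edgeR adjusted p of 0.0559, and -0.996 without WT 3 with an adjusted p of 0.00778. Its partner chain Col8a2 was low, at 0.233 ± 0.0781 CPM in KO (n = 4) and 0.555 ± 0.111 CPM in WT (n = 3), without overlap of the groups. Its log2 fold change of -1.24 (95% interval -2.03 to -0.45) did not pass (adjusted edgeR p 0.0972).

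**Figure D3:**
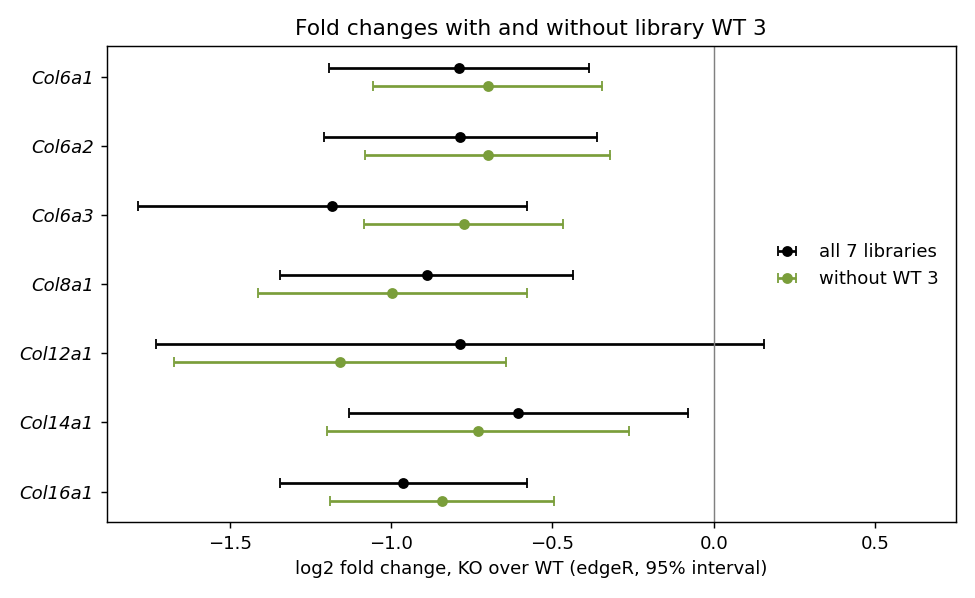
Log2 fold change, KO over WT, of each collagen with its 95% interval from edgeR, for all 7 libraries (black) and without WT 3 (green). All estimates are below 0. Leaving out WT 3 moves Col6a3 to -0.78 from -1.18 and Col12a1 to -1.16 from -0.79, and narrows both intervals.

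Per kilobase of exon, the collagen VI chains were well above the others in either genotype. Levels here are RPKM (CPM divided by the length in kilobases of the union of annotated exons). Col6a1 was highest, at 8.79 ± 1.86 RPKM in KO and 15.2 ± 1.63 RPKM in WT (SD, n = 4 and 3). Col6a2 was at 4.18 ± 0.927 RPKM in KO and 7.20 ± 0.915 RPKM in WT. Col6a3 was at 3.63 ± 0.474 RPKM in KO and 8.24 ± 3.61 RPKM in WT, so Col6a2 and Col6a3 did not differ beyond their spread in either group. By library, Col6a3 was at 7.185, 5.27 and 12.3 RPKM in WT 1 to WT 3. Next was Col14a1 (0.691 ± 0.182 RPKM in KO, 1.05 ± 0.191 RPKM in WT). Col16a1 followed (0.495 ± 0.0721 RPKM in KO, 0.965 ± 0.132 RPKM in WT), and these 2 neighbours overlapped by library in either group. Col8a1 was at 0.357 ± 0.0534 RPKM in KO and 0.661 ± 0.155 RPKM in WT, and overlapped with Col16a1 in KO but not in WT. Col12a1 was lowest, at 0.138 ± 0.0408 RPKM in KO and 0.238 ± 0.128 RPKM in WT (0.289, 0.333 and 0.0919 RPKM in WT 1 to WT 3). The order depended on the length used. Col6a2, with an exon union of 8326 bases and a longest transcript of 4912 bases, came to 7.08 RPKM in KO and 12.2 RPKM in WT over the longest transcript. It then stood above Col6a3, at 4.30 RPKM in KO and 9.75 RPKM in WT, without overlap of the libraries in KO.

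The members were also set against Col1a1, the α1 chain of collagen I. Col1a1 fell by 2.01 on the log2 scale (edgeR adjusted p 0.00661), to 33.0 ± 7.03 CPM in KO, against 133 ± 13.9 CPM in WT. This was a larger fall than that of any member, so a gene with no change would also be higher relative to Col1a1 in KO. The count ratio of Col6a1 to Col1a1 was 1.24, 1.06, 1.18 and 1.20 in KO 1 to KO 4, against 0.496, 0.502 and 0.500 in WT 1 to WT 3. In WT this ratio was nearly constant, including WT 3, and all KO ratios were more than 2-fold above it. The log2 difference was 1.22, with an exact two-sided permutation p of 0.0286, the smallest that 35 arrangements allow, and 0.0333 after adjustment over the 7 ratios. The same p and adjusted p held, by exact permutation, for Col6a2 (log2 difference 1.23), Col8a1 (1.16), Col12a1 (1.41), Col14a1 (1.41) and Col16a1 (1.07), in each of which all 4 KO ratios were above all 3 WT ratios. The share of all genes with such a ratio to Col1a1 was not counted. The Col12a1 value rested on WT 3, and without it the log2 difference was 0.74. Col6a3 over Col1a1 was 1.89, 1.50, 0.884 and 1.25 in KO 1 to KO 4, against 0.714, 0.480 and 0.991 in WT 1 to WT 3. KO 3 was below WT 3 in this ratio, and the log2 difference of 0.93 had an exact permutation p of 0.0857. The other fibrillar collagens did not all fall as far, and Col5a1, the α1 chain of collagen V, had a log2 fold change of -0.85. With Col5a1 in place of Col1a1, a gene chosen after its values were seen, the groups overlapped for all 7 members, with log2 differences between -0.25 and 0.23 and exact permutation p from 0.429 to 0.971. The fall of Col5a1 was near the members' median of -0.79, so small differences follow from the choice of this gene.

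Relative to the summed counts of the 12 fibro-adipogenic markers the members moved the other way. The sum itself overlapped between the groups, at 550.2 to 758 CPM in KO and 665 to 740.4 CPM in WT. A gene that fell would thus also tend to be lower relative to it in KO. The ratio of Col6a1 to this sum was 0.0530, 0.0526, 0.0624 and 0.0646 in KO 1 to KO 4, against 0.0807, 0.0910 and 0.111 in WT 1 to WT 3. The groups did not overlap, and the log2 difference was -0.69. Of the 7 ratios, 6 had all KO libraries below all WT libraries, with an exact permutation p of 0.0286 and an adjusted p of 0.0333 each: Col6a1, Col6a2 (log2 difference -0.69), Col6a3 (-0.99), Col8a1 (-0.76), Col14a1 (-0.51) and Col16a1 (-0.85). Col12a1 over the sum had a log2 difference of -0.51 and an exact permutation p of 0.343, with WT 3 again the lowest library. Without WT 3 the log2 difference of Col6a3 was -0.61. This sum rests mostly on 1 marker, Gsn, the actin-severing protein gelsolin, which many cell types make, named here for its share of the sum. Gsn gave 61.3% to 65.8% of the sum in KO and 52.4% to 67.2% in WT, and its log2 fold change was -0.06. Over the other 11 markers, an alternative chosen after the data were seen, 4 of the 7 ratios had all KO libraries below all WT libraries, those of Col6a1 (log2 difference -0.63), Col6a2 (-0.62), Col6a3 (-0.92) and Col16a1 (-0.79), with an exact permutation p of 0.0286 and an adjusted p of 0.05 each. Those of Col8a1 (-0.70, exact permutation p 0.0857) and Col14a1 (-0.45, exact permutation p 0.257) then overlapped, as did that of Col12a1 (-0.44, exact permutation p 0.486). The share of all genes with every KO ratio below every WT ratio was not counted for either sum.

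**Figure D4:**
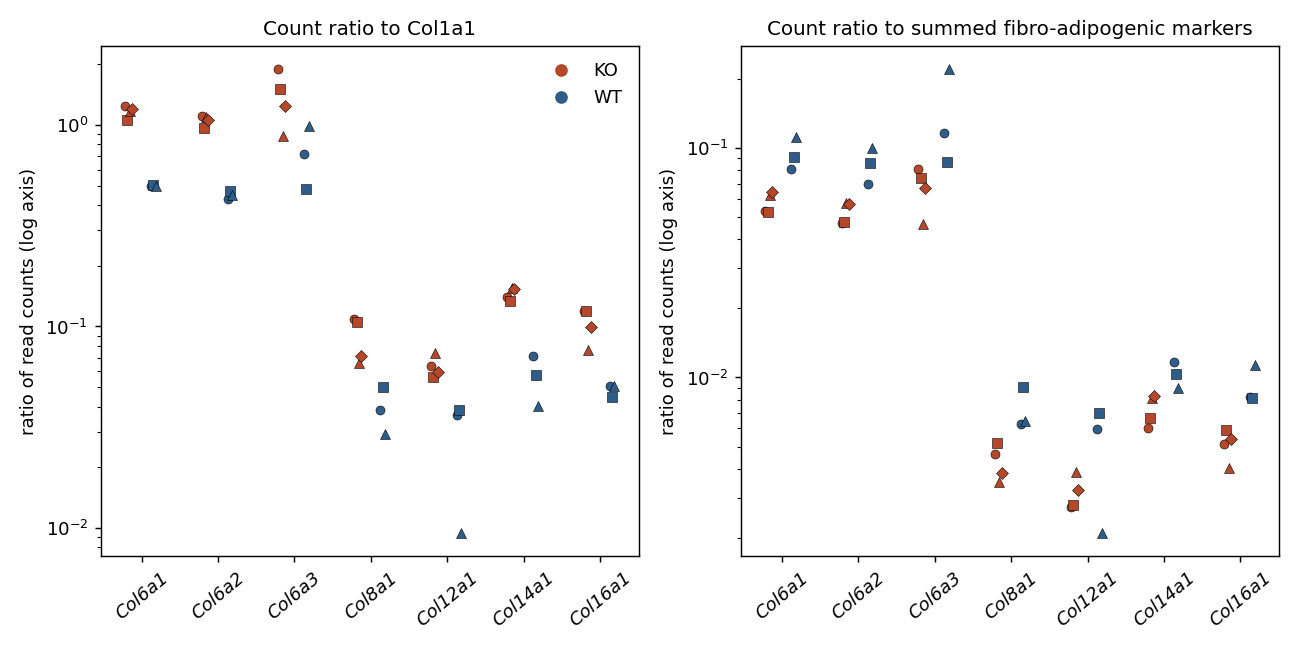
Read count of each member over that of Col1a1 (left) and over the summed counts of 12 fibro-adipogenic markers (right) in each library, on log axes, with KO in red left of WT in blue; circles, squares, triangles and diamonds are libraries 1 to 4. KO lies above WT on the left for all members but Col6a3, and below WT on the right for all but Col12a1, which overlap.

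Of 62 related genes in 4 lists, 53 were tested, of which 12 fell and 0 rose by edgeR with all libraries (4 higher at an unadjusted p under 0.05, and 2 by DESeq2). These lists were drawn up with earlier results of these data known, so the counts are a description. Leaving out WT 3 raised the falls to 21 and leaving out WT 2 or any 1 KO library lowered them to 1 to 5. Of 19 other non-fibrillar collagens, 13 were tested and only Col18a1, a basement membrane collagen that carries endostatin, fell. It was at 5.24 ± 0.891 CPM in KO and 9.25 ± 1.11 CPM in WT (SD, n = 4 and 3), with a log2 fold change of -0.82 and an edgeR adjusted p of 0.0424. The median log2 fold change of these 13 was -0.05, near that of all genes. The genes that most resemble Col6a3 in structure, Col6a4, Col6a5 and Col6a6, were chosen for their family and not by the naming rule. Col6a4 was nearly absent, with at most 0.0411 CPM in KO and 0.165 CPM in WT, and was too low to be tested. Col6a6 was at 6.07 ± 1.83 CPM in KO and 4.80 ± 1.13 CPM in WT (log2 fold change 0.34, 95% interval -0.26 to 0.93), and Col6a5 was at 0.609 ± 0.265 CPM in KO and 0.679 ± 0.333 CPM in WT. Neither passed (adjusted edgeR p 0.489 and 0.862). Col22a1, a FACIT of the muscle-tendon junction, was at 10.4 ± 3.41 CPM in KO and 24.0 ± 9.94 CPM in WT with an edgeR adjusted p of 0.0846. Of the fibrillar collagens, 6 of 10 tested fell, Col1a1, Col1a2, Col3a1, Col5a1, Col11a1 and Col11a2. Leaving out any 1 KO library left 1 to 3 calls in this list. A log2 fold change below 0 was found for 9 of the 10, although Col5a3 barely moved (-0.03). The exception was Col24a1, at 22.2 ± 1.73 CPM in KO and 14.9 ± 2.59 CPM in WT without overlap (edgeR adjusted p 0.0680). The fibrillar list had a median log2 fold change of -1.02, against -0.79 for the members.

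Of the receptors that bind collagens, 2 of 10 tested fell. Mrc2, the endocytic receptor that clears collagen fragments, was at 5.83 ± 0.480 CPM in KO and 10.5 ± 1.87 CPM in WT (log2 fold change -0.85, edgeR adjusted p 0.0291). Ddr1, a receptor tyrosine kinase for collagen, was at 20.8 ± 2.76 CPM in KO and 32.4 ± 3.44 CPM in WT (log2 fold change -0.64, edgeR adjusted p 0.0494). Cspg4, the NG2 proteoglycan that binds collagen VI, was at 6.07 ± 0.803 CPM in KO and 10.8 ± 3.44 CPM in WT, with an edgeR adjusted p of 0.0847. Among 20 matrix partners 3 fell. Bgn, or biglycan, which binds collagen VI and helps its assembly, was at 26.7 ± 3.90 CPM in KO and 48.2 ± 2.54 CPM in WT (log2 fold change -0.85, edgeR adjusted p 0.0216). Comp and Thbs4, matricellular proteins of tendon that bind collagens, fell by 2.39 and 1.35 on the log2 scale (edgeR adjusted p 0.0185 and 0.0416), and both also stand in the tendon marker list. Without WT 3 their log2 fold changes were -2.70 and -0.85. Col18a1, Mrc2, Ddr1, Bgn, Comp and Thbs4 each lost the call without any 1 KO library, and all but Thbs4 without WT 2 (adjusted edgeR p 0.0526 to 0.157), and Col18a1 and Ddr1 also without WT 1.

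The genes whose log2 CPM over the 7 libraries was most like that of the members are given as a description, since the libraries share the genotype difference and the values of WT 3. For the summed collagen VI chains they were Bmp4 (r = 0.989), a growth factor of the TGF-β family, the formin Fmnl2 (r = 0.989) and Clec3b (r = 0.987), tetranectin, one of the fibro-adipogenic markers. Bmp4 was at 3.28 ± 0.436 CPM in KO and 6.27 ± 1.38 CPM in WT (SD, n = 4 and 3). For Col16a1 they were Cys1 (r = 0.991), Rnft2 (r = 0.989) and the maternally expressed long non-coding RNA Rian (r = 0.988). For Col12a1 they were Rap1gap2 (r = 0.994), Svep1 (r = 0.993), a large matrix protein, and Aspa (r = 0.993), and like Col12a1 each of these 3 was at its lowest WT level in WT 3. For Col14a1 they were Enpp1 (r = 0.987), Cmip (r = 0.986) and Ptgfrn (r = 0.971), and for Col8a1 Ccnj (r = 0.985), Cib2 (r = 0.980) and Fras1 (r = 0.977), a basement membrane protein.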

How the data were processed

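Whole-number counts of reads per Ensembl gene were deposited as 1 table, which the authors had not normalized. In the submitters' processing notes the tools are STAR 2.5.2b, HTSeq 0.6.1, Trim Galore 0.4.2 and CASAVA 1.8.2, whereas the study's methods describe Salmon. The methods name mm10 and a strand-aware setting for the Salmon route, and neither the build nor the strand setting of the counts is stated. No exon of a member overlaps an exon of another annotated gene. The 5 summary rows (32.3% to 42.7% of each library) were kept out. Of 48795 gene IDs, 48349 were matched to GENCODE M21. No pair of libraries of the same genotype agreed within sampling noise (chi-square test), and pairs across genotypes were not compared. The methods give a larger number of WT animals than the 3 libraries here.

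Counts were fitted in edgeR 4.0.16 (R 4.3.3; minimum count 10, TMM, quasi-likelihood test on genotype, Benjamini-Hochberg over 14002 genes, threshold 0.05). Alternatives used DESeq2 1.42.0, limma 3.58.1, other scalings and filters, each library left out and a replicate block. The edgeR fit was tested on simulated counts, with equal scatter for all genes and no library that stood apart as WT 3 does. Count ratios within a library were compared with exact two-sided permutation tests in SciPy 1.17.1, of the absolute difference of mean log2 ratios, adjusted within each of the 3 families of ratios (3, 7 and 7). Likeness is Pearson's r of log2(CPM + 0.5) among 11226 genes with a mean of at least 1 CPM. Named genes are all members and the 3 genes of each related list that had the smallest edgeR p. The 3 genes most like each member, or like the sum of collagen VI chains, are named without gene models and pseudogenes. The cell type marker lists do not follow this rule throughout, so an unnamed marker can have a smaller p than a named one. Genes that passed the threshold in a list are also named. Members and lists were chosen with earlier results of these data known. A planned search for miR-486-5p sites was not run.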

Additional observations from a re-analysis of the deposited data

Results flagged for a closer look

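Within the KO group, 24 sets of 4 values (the CPM of 7 members and 17 ratios) were examined for a library far from the others by Dixon's test at 95%. Only Col8a1 met it, about what chance gives at 1 in 20. It was at 3.42 CPM in KO 2 against 2.55 to 2.65 CPM in the other KO libraries, a gap of 0.881 of the KO range. KO 2 was still below the lowest WT library, at 4.32 CPM.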

How the results depend on the processing

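All 7 members had a log2 fold change under 0 in every alternative fit. When any library was left out, the 17 log2 ratio differences moved by less than the SD of that log2 ratio over all 7 libraries. That SD contains the genotype difference, so it is a wide measure. For Col6a1 over Col1a1 it was 0.658, against 0.095 within KO and 0.008 within WT. The difference of Col12a1 over Col1a1 went from 1.41 to 0.74 without WT 3, with an SD of 0.168 within KO. The number of calls was less stable. Of the 7 members, 1 fell in edgeR with all libraries, with another scaling and without mitochondrially encoded genes, 5 fell with DESeq2, 5 fell without the filter on low counts and 7 fell with voom quality weights. Of all genes, 259 of 14002 fell in edgeR, 251 of 14002 with the other scaling and 265 of 13915 without mitochondrially encoded genes. DESeq2 called 665 of 14002 as lower, the fit without the filter 364 of 25235 and voom 1228 of 14002. Leaving out 1 library gave between 0 and 7 members, with 7 only without WT 3, and between 10 and 929 of all genes. Of the related genes, 12 fell in edgeR, 21 with DESeq2, 22 with voom and 17 without the filter, and leaving out 1 library gave between 1 (without KO 4) and 21 (without WT 3). None of them rose in edgeR, while 2 rose with DESeq2, 1 without the filter, 3 with voom and 0 to 2 with 1 library left out. The causes were not tested. Other denominators were chosen after seeing the data. With Gsn left out of the fibro-adipogenic sum, Col8a1 (log2 difference -0.70) and Col14a1 (-0.45) no longer passed the exact permutation test. With Col5a1 in place of Col1a1 the same held for Col6a1 (0.045), Col6a2 (0.049), Col12a1 (0.23) and Col14a1 (0.23), and Col8a1 (-0.022) and Col16a1 (-0.11) changed direction. Col5a1 fell about as far as the members, so differences this small follow from its choice and are no independent check. With the replicate block on libraries 1 to 3, 0 members, 0 related genes and 0 of all 13897 genes fell by edgeR. In that fit 5 members were lower at an unadjusted p under 0.05, and the share of all genes was not counted. The deviations of same-numbered libraries from their group means correlated at r = -0.315, 0.256 and -0.124, and those of differently numbered libraries at -0.307 to 0.376. Deviations within so few libraries depend on each other, so these values cannot decide whether the numbers pair the libraries. Over the longest transcript in place of all exons, 5 of the 7 levels per length in KO moved by more than the SD. With 34 to 135 reads in a WT library, Col12a1 was the member whose counts limit precision most.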
